A study of Sus scrofa with 6 samples.

Results

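The proteasome genes were taken by symbol from the deposited table, as every gene whose name begins with PSMA to PSMG followed by a number. This gave 44 of the 31908 Ensembl genes of the table, and 42 of them encode subunits, regulators or assembly factors of the proteasome. The other 2, PSMC3IP and PSME3IP1, carry such a name but are not subunits, though PSME3IP1 binds PSME3. A further 5 proteasome genes, PSMA2, PSMB5, PSMB6, PSMD9 and PSMG2, are listed without a symbol, were found by gene ID or by position, and are kept out of all counts of the 44.

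The proteasome is the protease that degrades proteins tagged with ubiquitin. Its 20S core is a barrel of outer alpha rings and inner beta rings, and the subunits PSMB5, PSMB6 and PSMB7 cut the protein chain. The 19S particle at the end of the barrel recognizes ubiquitin, unfolds the substrate with its ring of ATPases and feeds it into the core. Interferon induces PSMB8, PSMB9 and PSMB10, which replace the 3 catalytic subunits in the immunoproteasome, and the PA28 subunits PSME1 and PSME2, which cap the core and favor the release of peptides for antigen presentation. In skeletal muscle the ubiquitin-proteasome system is known for the breakdown of myofibrillar proteins during atrophy.

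The tissue was longissimus dorsi (LD), a back muscle, from 6 castrated male Laiwu pigs, a Chinese breed known for fat within its muscle. The pigs were chosen for their extreme intramuscular fat (IMF) content, with 3 of high content (S-H: LW63, LW70 and LW119) and 3 of low content (S-L: LW82, LW88 and LW90), with 1 total RNA library per pig after removal of ribosomal RNA. Values are FPKM, fragments scaled by transcript length and by the mapped fragments of the library, summed over the Ensembl transcripts of a gene. FPKM holds no read counts, so the number of reads behind a value is unknown. Each SE given is that of limma, which draws the spread between pigs toward that of all tested genes at a similar level. The authors list the depth of each library, with the fewest clean reads and the lowest mapped share in LW88. LW90 had the most clean reads. Any bearing of this on the values was not tested.

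Skeletal muscle genes were abundant in every pig, since the 4 of 7 muscle markers found by symbol or gene ID summed to 5587 to 8227 FPKM in S-H and 6218 to 9130 FPKM in S-L. All 5 adipocyte markers were higher in S-H without overlap, with a sum of 372.7 to 1045 FPKM against 158.5 to 285.4 FPKM. Over all 12245 tested protein-coding genes the median log2 fold change was 0.22 toward S-H in FPKM. Median-ratio size factors divide each library by its median ratio, over genes, to the geometric mean of the gene over the pigs. After them the median log2 fold change was 0.01, so the differences given here are read against the shift of 0.22. In whole muscle, fewer cells of a type and less RNA per cell cannot be told apart.

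Of the 44 proteasome genes, 41 reached a mean of 0.1 FPKM and were tested with limma on log2(FPKM + 0.1). None of them passed the thresholds, a log2 fold change of 1 or more in either direction with an unadjusted p below 0.01, which 1.33% of all tested genes passed. An unadjusted p below 0.05 was found for 3 of the 41 (PSME1, PSMB10 and PSMB8), against 7.85% of all tested genes, and all 3 belong to the immunoproteasome or to PA28. No Benjamini-Hochberg adjusted p was below 0.05 for any gene (0% of those tested by limma), and the lowest among the proteasome genes was 0.613. Higher means in S-H on the log2 scale were found for 27 of the 41, while 74.1% of all genes were higher in S-H, and with size factors the number was 11. The groups did not overlap for 4 genes that were higher in S-H (PSMA7, PSMB8, PSMB10 and PSME1), where 13% of all genes did so, and for 0 genes that were lower, where 1.7% did so. With size factors PSMB8, PSMB10 and PSME1 were still higher without overlap (5.94% of all genes), PSMA7 overlapped, and 6 genes were lower without overlap (6.48% of all genes), namely PSMD7, PSMD11, PSMD12, PSMD14, PSME3 and PSME4. An unadjusted p below 0.05 was then found for 5 genes, PSME1, PSMB10, PSMB8, PSMD11 and PSME4, against 6.57% of all genes.

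**Figure D1:**
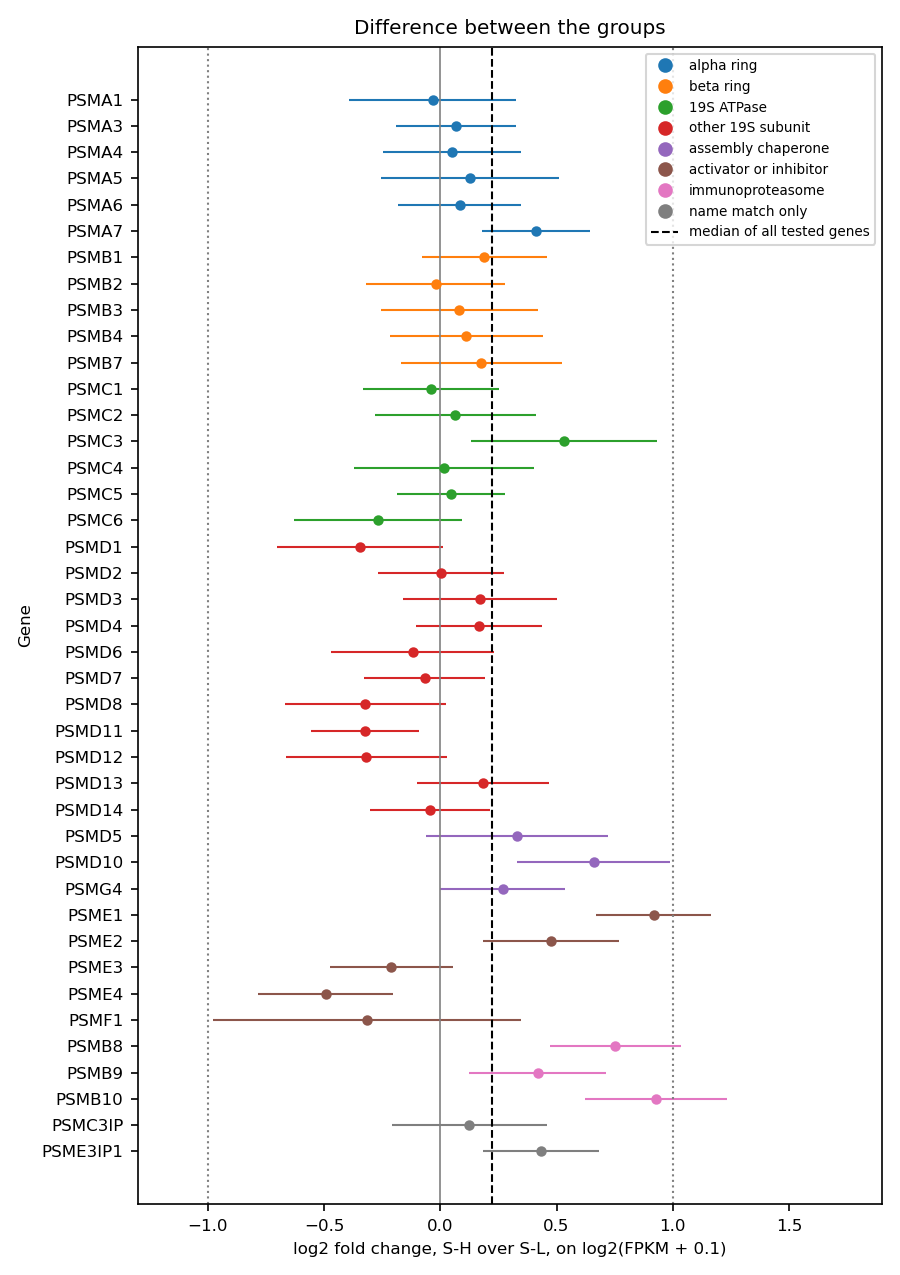
Log2 fold change of S-H over S-L on log2(FPKM + 0.1) for the 41 tested proteasome genes (points, colored by class), with the standard error from limma as bars. The dashed line is the median of all tested genes (0.22), the dotted lines are the fold threshold of 1 in either direction, and of the genes plotted PSME1 and PSMB10 lie nearest to it, at 0.92 and 0.93. PSMG3, without a value on Ensembl transcripts, is not plotted.

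The 28 tested standard subunits, 11 of the 20S core and 17 of the 19S particle, followed single pigs more than the groups. LW88, an S-L pig, had the highest FPKM of the 6 pigs for 26 of the 28, while it was the highest pig for 12% of all tested genes. LW90, also an S-L pig, had the lowest FPKM for 23 of the 28, against 40.6% of all tested genes. The 2 standard subunits that were not highest in LW88 were PSMA7 and PSMD13. With size factors, LW88 was the highest pig for 27 of the 28, and LW90 was the lowest for 7. Among the other 5 pigs, LW63 of the S-H group was the highest for 21 of the 28.

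The median deviation of the 28 standard subunits from their own mean over the pigs was 0.27 in LW63, -0.14 in LW70, -0.06 in LW119, -0.08 in LW82, 0.55 in LW88 and -0.52 in LW90, on the log2 scale. The difference between LW88 and LW90 corresponds to 2.10-fold on FPKM and 1.73-fold with size factors, whereas over all tested genes these pigs differed by 1.20-fold on FPKM. The same order of the S-L pigs, with LW88 first and LW90 last, held for the medians of the alpha ring, the beta ring, the 19S ATPases and the other 19S subunits. On FPKM it also held for the assembly chaperones, the activators with the inhibitor, and the immunoproteasome subunits. Their medians in LW88 were 1.61-fold, 1.66-fold and 1.84-fold those in LW90. Within S-L the median SD of the standard subunits was 0.51 on the log2 scale, against 0.27 within S-H, and it was wider in S-L for 28 of 28. Over all tested genes the medians were 0.36 and 0.35, and 50.1% were wider in S-L. With size factors 24 of the 28 were wider in S-L.

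**Figure D2:**
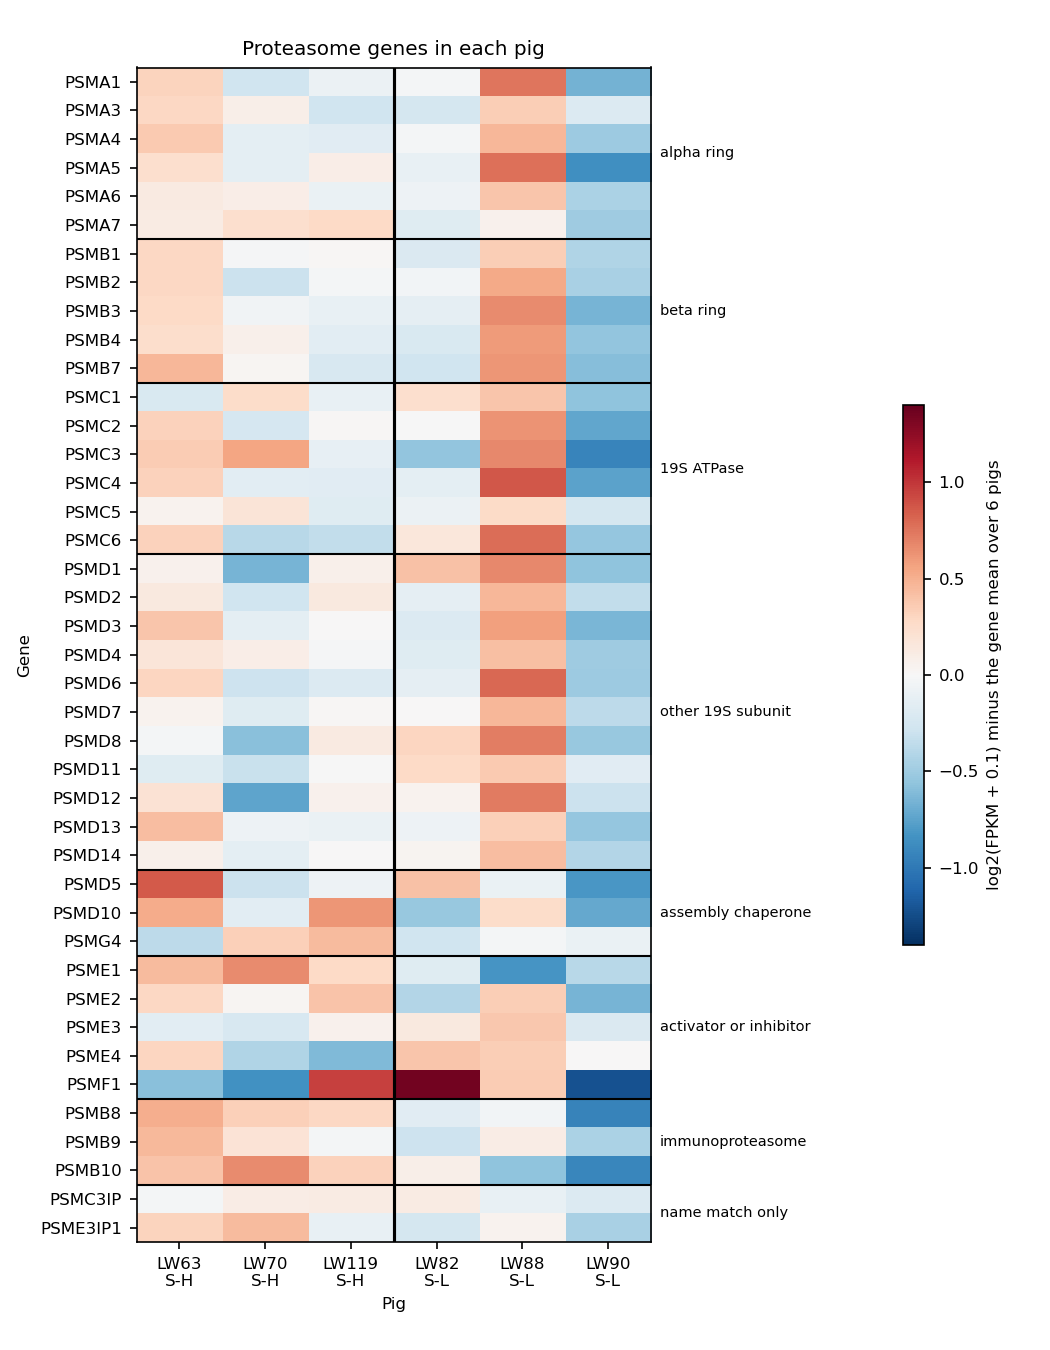
Deviation of log2(FPKM + 0.1) from the mean of each gene over the 6 pigs (color), for the 41 tested proteasome genes (rows, grouped by class) in each pig (columns, S-H left of the line). Most standard subunits are red in LW88 and blue in LW90, both S-L pigs, while PSMB8, PSMB10 and PSME1 are red in all 3 S-H pigs.

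Between the groups, the median log2 fold change of the 28 standard subunits was 0.05, with 17 higher and 11 lower in S-H, and with size factors it was -0.18 with 2 higher. This value depended on the S-L pigs at the ends of the range. Without LW88 the median was 0.29 and 24 of the 28 were higher in S-H, 8 of them without overlap (23.4% of all tested genes were so). Without LW90 it was -0.24 and 3 of the 28 were higher, with 1 gene, PSMA7, higher without overlap (14.9% of all) and 3 genes, PSMD1, PSMD8 and PSMD11, lower without overlap (4.44% of all). The median of all tested genes was 0.26 without LW88 and 0.13 without LW90. On FPKM with all 6 pigs, 0 of the 28 had an unadjusted p below 0.05 by limma, and with size factors 1 did, PSMD11 (log2 fold change -0.55).

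The alpha subunits form the gate of the core. PSMA7 was at 96.3, 105 and 108 FPKM in S-H and at 79.0, 92.9 and 62.9 FPKM in S-L, so that no S-L pig reached an S-H pig on FPKM, and its log2 fold change was 0.41 (SE 0.23; limma, adjusted p = 0.656). With size factors LW88 (95.1) lay above LW63 (84.2) and LW119 (94.0), the groups overlapped, and the log2 fold change was 0.18. PSMA1 had the smallest log2 fold change of the ring, -0.03 (SE 0.36). It was at 95.4, 63.1 and 72.2 FPKM in S-H and at 74.9, 129 and 48.2 FPKM in S-L, where LW88 and LW90 lay beyond all S-H pigs on either side. The 6 tested alpha genes had means over the pigs of 15.3 to 129.9 FPKM, and 5 of them were higher in S-H on FPKM but 1 with size factors. PSMA8, the alpha subunit of the testis, was listed at 0 in every pig.

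Of the beta ring, PSMB4, a structural subunit, had the highest mean of all tested proteasome genes, 331.9 FPKM. Its values were 382, 337 and 289.8 FPKM in S-H and 277, 486 and 219 FPKM in S-L, and the S-H pigs lay within the range of the S-L pigs. PSMB1, structural as well, had the largest log2 fold change of the ring, 0.19 (SE 0.27), from 264, 213 and 219 FPKM in S-H against 188, 274 and 162 FPKM in S-L. PSMB2 had the smallest, -0.02 (SE 0.30), from 18.9, 12.5 and 15.1 FPKM in S-H against 14.99, 22.2 and 11.2 FPKM in S-L. For both genes LW88 was the highest pig and LW90 the lowest, and with size factors 0 of the 5 tested beta ring genes were higher in S-H, against 4 on FPKM. PSMB11, the beta subunit of the thymus, was listed at 0 in every pig.

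The catalytic subunits of the standard core did not separate the groups. PSMB7, the trypsin-like subunit, was at 159, 117 and 98.2 FPKM in S-H and at 94.3, 176 and 76.0 FPKM in S-L (log2 fold change 0.18, SE 0.34). PSMB6, the caspase-like subunit, was at 153, 168 and 99.4 FPKM in S-H and at 109.5, 156 and 119.8 FPKM in S-L (log2 fold change 0.11, SE 0.28). PSMB5, the chymotrypsin-like subunit, was at 13.4, 13.1 and 11.5 FPKM in S-H and at 12.0, 17.4 and 13.2 FPKM in S-L (log2 fold change -0.15, SE 0.23). The groups overlapped for each of them, and with size factors PSMB7 and PSMB6 were lower in S-H (-0.05 and -0.12). The PSMB5 level is uncertain, because a transcript named C14orf93-201 (chr7:76014912-76058891, on the Sus scrofa assembly of the authors) covers nearly the whole PSMB5 gene (chr7:76014901-76021919) and was listed at 36.7 to 66.9 FPKM, so that reads can be split between them.

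The ATPases of the 19S base had means of 42.5 to 110.9 FPKM, and all 6 were highest in LW88 and lowest in LW90. PSMC3 had the largest log2 fold change, 0.53 (SE 0.40; limma, adjusted p = 0.705), with 65.1, 74.2 and 46.9 FPKM in S-H and 34.5, 80.9 and 26.7 FPKM in S-L. LW88 alone overlapped the S-H pigs, and without it the log2 fold change was 1.003 and PSMC3 passed both thresholds. PSMC6 had the smallest, -0.27 (SE 0.36), with 132, 80.5 and 82.6 FPKM in S-H and 117, 181 and 72.4 FPKM in S-L.

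The other 19S subunits, which include the scaffolds, the ubiquitin receptors and the lid with its deubiquitinase, had means of 21.3 to 105.4 FPKM, and 4 of the 11 were higher in S-H on FPKM but 0 with size factors. PSMD13, a lid subunit, had the largest log2 fold change, 0.18 (SE 0.29), with 86.4, 61.1 and 60.0 FPKM in S-H and 61.0, 80.8 and 43.9 FPKM in S-L. PSMD1, a scaffold of the base, had the smallest, -0.35 (SE 0.36), with 30.9, 18.8 and 31.2 FPKM in S-H and 39.4, 47.4 and 19.96 FPKM in S-L. The groups overlapped for all 11 genes on FPKM.

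PSMB9 and PSMB10 were expressed far below their standard counterparts in every pig. PSMB8 was at 89.9% to 98.7% of PSMB5 in S-H and at 36.5% to 69.3% in S-L, and the PSMB5 level is uncertain. For 2 of these 3 immunoproteasome subunits all S-H pigs lay above all S-L pigs, as for 13% of all tested genes. PSMB8 (chr7:25053132-25073046) was at 13.2, 11.7 and 11.3 FPKM in S-H and at 8.28, 9.05 and 4.81 FPKM in S-L. The S-H pigs were close together, LW90 was the lowest, and the log2 fold change was 0.75 (SE 0.28; limma, adjusted p = 0.627). PSMB10 (chr6:28540807-28548152) was at 5.63, 6.77 and 5.35 FPKM in S-H and at 4.51, 2.84 and 2.20 FPKM in S-L, a log2 fold change of 0.93 (SE 0.30; limma, adjusted p = 0.619). Here LW88 was low, unlike in the standard subunits.

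PSMB9 (chr7:25055594-25078594) was the weakest of the 3, at 2.09, 1.72 and 1.47 FPKM in S-H and at 1.21, 1.61 and 1.08 FPKM in S-L. LW88 lay above LW119, so the groups overlapped, and the log2 fold change was 0.42 (SE 0.29; limma, adjusted p = 0.694). When the assembled transcript that shares its gene ID, 29.1% of the sum over all its transcripts, was added, the values were 2.78, 2.49 and 2.25 FPKM in S-H and 1.68, 2.12 and 1.63 FPKM in S-L, which no longer overlapped. This assembled transcript (chr7:25045675-25056902) lies within the span of TAP2 (chr7:25043722-25057148) and does not reach the leading PSMB9 transcript. Whether its reads come from PSMB9 or TAP2 was not tested. PSMB9 and PSMB8 lie side by side on chromosome 7, with TAP1 between their leading transcripts.

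The PA28 genes lie next to each other on chromosome 7. PSME1 (chr7:75148754-75171146) had the lowest p of all proteasome genes, with 27.2, 31.7 and 24.4 FPKM in S-H and 17.8, 11.3 and 15.3 FPKM in S-L. All S-H pigs were above all S-L pigs, LW88 was the lowest, and the log2 fold change was 0.92 (SE 0.25; limma, adjusted p = 0.613). PSME2 (chr7:75151354-75157872) was at 21.8, 18.2 and 23.5 FPKM in S-H and at 13.4, 22.8 and 11.3 FPKM in S-L, and LW88 overlapped the S-H pigs (log2 fold change 0.48, SE 0.29; limma, adjusted p = 0.67).

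**Figure D3:**
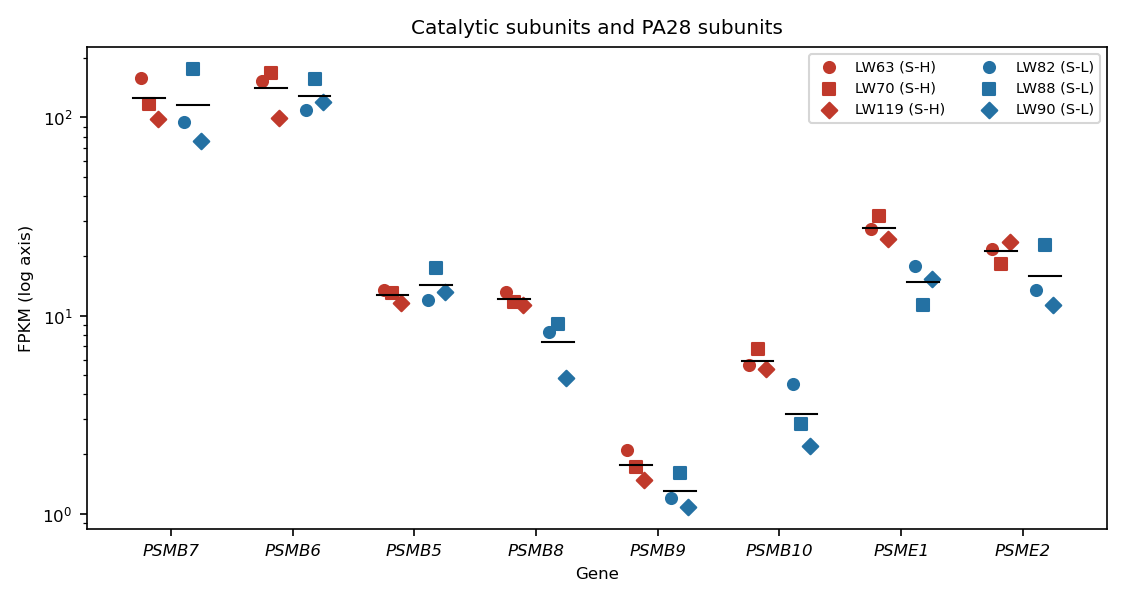
FPKM on a log axis of the standard catalytic subunits PSMB7, PSMB6 and PSMB5, their immunoproteasome counterparts and the PA28 subunits in each pig (points, red S-H and blue S-L), with the group mean as a line. PSMB8, PSMB10 and PSME1 show no overlap between the groups, while LW88 is the highest S-L pig for PSMB7, PSMB6, PSMB5, PSMB8, PSMB9 and PSME2.

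The median log2 fold change of these 5 genes was 0.75, and all 5 were higher in S-H, as were 74.1% of all tested genes. All 5 stayed higher under each of the other settings, which reuse the same pigs. There this median lay between 0.48 (without LW90) and 0.89 (TPM). It was 0.53 with size factors, above the all-gene median of 0.01 on that scale, where PSMB9 was at 0.21. PSME1 passed the thresholds in TPM and without LW119 or LW82, with log2 fold changes of 1.05, 1.01 and 1.06, and PSMB10 in TPM and without LW82, with 1.06 and 1.20. The summed adipocyte markers separated the groups in the same direction, whereas the leukocyte gene PTPRC overlapped, at 2.86 to 7.16 FPKM in S-H and 2.84 to 4.25 FPKM in S-L. The 6 macrophage markers overlapped too, with sums of 15.2 to 58.0 and 20.2 to 28.3 FPKM. So did the 5 T and natural killer cell markers, with 1.36 to 2.67 and 1.05 to 2.03 FPKM. Of these 5 only CD3E, at no more than 0.24 FPKM, was higher in every S-H pig (13% of all tested genes were so). With assembled transcripts added the groups overlapped for CD3E. CD2 was lower in S-H on FPKM (log2 fold change -0.26). The 4 B cell markers summed to 0.703 to 1.41 and 0.336 to 1.22 FPKM, and the 4 fibroblast markers to 285 to 596 and 312 to 492 FPKM. The 4 endothelial markers summed to 70.8 to 101.1 and 55.6 to 83.7 FPKM. PECAM1 alone of these 4 was higher in every S-H pig, while the log2 fold changes of CDH5, KDR and VWF were 0.03, 0.06 and -0.28. The part of these cell types in the PSMB8, PSMB10 and PSME1 values was not tested.

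To compare each immunoproteasome subunit with the subunit it replaces within the same library, their FPKM ratio was formed. A ratio does not change when a whole library is rescaled, but the listed values of PSMB5 and PSMB6 were taken to be TPM. Their ratios thus rest on the factor per pig (0.639 to 0.847) that brought TPM to FPKM, while PSMB10 over PSMB7 does not. PSMB8 was 98.7%, 89.9% and 98.3% of PSMB5 in S-H and 69.3%, 51.9% and 36.5% in S-L, so the groups did not overlap. The mean log2 ratio was higher in S-H by 0.90, or 1.87-fold (two-sided exact permutation test, p = 0.10, below which 3 pigs against 3 cannot go, and 0.30 after adjustment over the 3 ratios). With the overlapping C14orf93 transcript added to PSMB5 the difference was 0.70. The percentages of PSMB5 would then be lower in every pig, so the level of this ratio depends on how reads were assigned.

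PSMB10 was 3.54%, 5.79% and 5.44% of PSMB7 in S-H and 4.78%, 1.61% and 2.90% in S-L, where LW82 lay within the range of the S-H pigs (difference 0.75 on the log2 scale, exact two-sided permutation test, p = 0.20). PSMB9 was 1.36%, 1.02% and 1.48% of PSMB6 in S-H and 1.10%, 1.03% and 0.900% in S-L, and the ranges overlapped (difference 0.31, exact two-sided permutation test, p = 0.30). The adjusted p was 0.30 for each of these ratios.

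**Figure D4:**
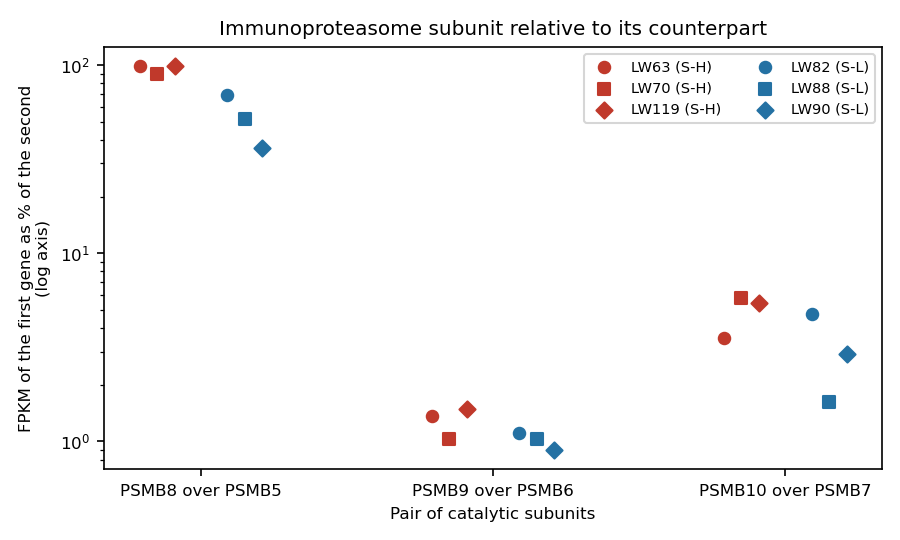
FPKM of each immunoproteasome subunit as a percentage of its standard counterpart (log axis) in each pig, red for S-H and blue for S-L. For PSMB8 over PSMB5 the S-H pigs sit at 89.9% to 98.7%, above all S-L pigs, and the other 2 pairs overlap. The PSMB5 level is uncertain because a C14orf93 transcript overlaps the gene.

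The other activators and the inhibitor did not follow PA28. PSME4, the large activator PA200, was expressed at a high level and had the smallest log2 fold change of all proteasome genes, -0.49 (SE 0.29; limma, adjusted p = 0.666), with 176, 106 and 92.8 FPKM in S-H and 187, 181 and 143 FPKM in S-L. LW63 was the S-H pig that overlapped the S-L pigs on FPKM, and with size factors the groups did not overlap and the log2 fold change was -0.72. PSME3, the nuclear PA28 gamma, was weak, with a mean of 2.89 FPKM and groups that overlapped on FPKM and were lower in S-H without overlap with size factors.

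Assembly chaperones escort subunits into the core or the base and leave the finished particle. PSMD10, the base chaperone gankyrin, had a log2 fold change of 0.66 (SE 0.33; limma, adjusted p = 0.636), with 13.1, 8.20 and 14.01 FPKM in S-H and 6.29, 10.9 and 5.48 FPKM in S-L. LW88 lay above LW70, so the groups overlapped. PSMG4, a chaperone of the core, was at 8.97, 14.7 and 15.8 FPKM in S-H and at 9.60, 11.4 and 10.9 FPKM in S-L (log2 fold change 0.27, SE 0.27). The Ensembl transcript of PSMG3, another core chaperone, was listed at 0 in every pig, and its reads were assigned to an assembled transcript at 10.8, 2.96 and 8.11 FPKM in S-H and at 2.04, 9.16 and 1.11 FPKM in S-L. PSMG3 was therefore not among the 41 tested genes. With this transcript added its log2 fold change was 1.17, above that of PSME1 and PSMB10, but LW88 lay above 2 of the S-H pigs, the groups overlapped and PSMG3 did not pass the thresholds.

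Among the 5 genes without a symbol, the groups also overlapped. PSMA2 had a log2 fold change of 0.07, PSMD9 0.02 and PSMG2 0.32, and LW88 was the highest pig for PSMA2, PSMB5, PSMD9 and PSMG2. The exception was PSMB6, with its highest value in LW70. PSMC3IP, the cofactor of meiotic recombination that only shares the name, had the lowest mean of the tested genes, 0.277 FPKM. It was at 0.267, 0.303 and 0.306 FPKM in S-H and at 0.305, 0.249 and 0.228 FPKM in S-L.

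For 34 of the 41 tested genes, 1 Ensembl transcript held the largest share in all 6 pigs, and for 7 the leading transcript differed between pigs. The genes described here were chosen after their values were seen. PSMF1 encodes the inhibitor PI31. PSMF1-202 (chr17:34098991-34164717) was at 12.4 FPKM in LW119 and 16.5 FPKM in LW82 and at 0 in the other 4 pigs, where PSMF1-201 (chr17:34114984-34169230) led with 4.16, 2.87, 8.25 and 2.504 FPKM in LW63, LW70, LW88 and LW90. Each group thus held pigs of both kinds, and the gene sum was highest in these 2 pigs (12.6 and 16.6 FPKM, against 2.71 to 8.27 FPKM), with an SE of 0.66 for its log2 fold change of -0.32, the widest of the 41 genes.

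PSMC3 was led by PSMC3-206 (chr2:15176497-15191179) at 62.7, 67.0, 26.3, 18.8 and 75.4 FPKM in LW63, LW70, LW119, LW82 and LW88, whereas this transcript was listed at 0 in LW90, where PSMC3-207 (chr2:15180468-15193085) held 19.9 FPKM. Taken over PSMC3-206 alone, its log2 fold change was 3.20 instead of 0.53, which rests on this 0. PSMD10 switched as well, with PSMD10-203 leading in 5 pigs and PSMD10-201 in LW88, and over PSMD10-203 alone its log2 fold change was 1.86 instead of 0.66. Assembled transcripts held over 10% of the sum over all transcripts in 3 of the 44 genes. These were PSMG3 and PSMB9, described above, and PSMD13, where a transcript named PSMD13-OT1 held 63.4% and the log2 fold change with it added was 0.06.

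**Figure D5:**
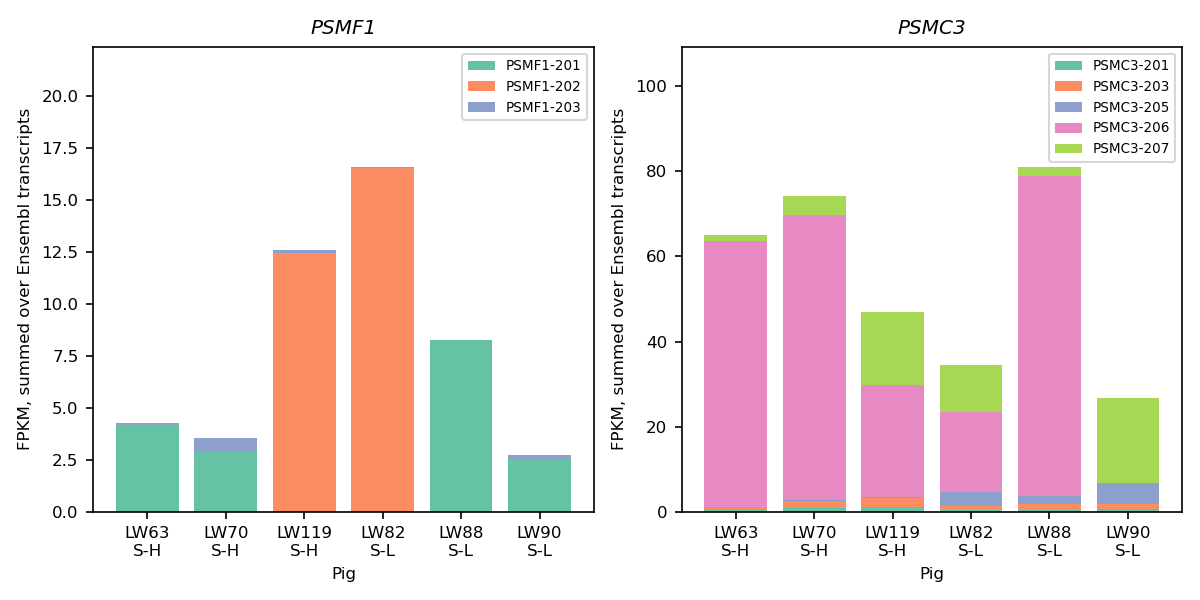
FPKM of the Ensembl transcripts of PSMF1 (left) and PSMC3 (right) in each pig, stacked to the gene sum. PSMF1-202 makes up nearly all of PSMF1 in LW119 and LW82 only, and PSMC3-206 is missing in LW90.

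Partners of the proteasome here are ubiquitin genes, shuttle factors, associated deubiquitinases and the regulators of subunit transcription and assembly. They were listed with earlier results of these data known. Of 30 listed genes 25 were tested, with 15 higher and 10 lower in S-H on FPKM but 6 higher with size factors. LW88 was the highest pig for 9 of the 25 (12% of all tested genes), and the median log2 fold change was 0.03. Among the larger log2 fold changes were those of MIDN (-0.61), AKIRIN2 (-0.57), UBB (0.55) and USP14 (-0.49), each with an unadjusted p above 0.05 and overlapping groups.

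Interferon and antigen processing genes were listed in the same way. Without the 5 proteasome genes that belong to it, 12 of the 15 genes were tested, and 12 had a higher mean in S-H on FPKM (74.1% of all tested genes) and 9 with size factors. Their median log2 fold change was 0.47 (0.24 with size factors), 2 had an unadjusted p below 0.05 (7.85% of all tested genes) and 3, TAP1, TAP2 and ERAP1, were higher without overlap (13% of all). With size factors 1 had an unadjusted p below 0.05, ERAP1, and 2 were higher without overlap, ERAP1 and TAP2. None of the 12 had its highest value in LW88, which was the highest pig for 12% of all tested genes. ERAP1, which trims peptides in the endoplasmic reticulum, was at 7.08, 7.83 and 8.88 FPKM in S-H and at 5.32, 5.39 and 4.07 FPKM in S-L (log2 fold change 0.68, SE 0.24; limma, adjusted p = 0.619). TAP1, a subunit of the peptide transporter, was at 13.5, 10.9 and 8.94 FPKM in S-H and at 7.96, 7.02 and 6.95 FPKM in S-L (log2 fold change 0.58, SE 0.24; limma, adjusted p = 0.628). Both separated the groups without overlap. GBP2, PDIA3, IRF1 and B2M followed with log2 fold changes of 0.69, 0.68, 0.50 and 0.48, an unadjusted p above 0.05 and overlapping groups. As with the proteasome genes, these values are to be read against the 0.22 shift of all genes.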

How the data were processed

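LD muscle of 3 S-H and 3 S-L pigs was analysed, 1 library per pig. The authors filtered the reads, used HISAT2 for alignment to Sus scrofa 11.1 and obtained transcript levels with StringTie. The deposited values are labelled FPKM per transcript, but those of 21104 symbol-less Ensembl transcripts were taken to be TPM. These were brought to FPKM by 1 factor per pig computed from the table (0.639 to 0.847). Depth is unknown.

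Gene values were sums over Ensembl transcripts sharing a gene ID. Adding assembled transcripts of the same ID was an alternative. Protein-coding genes by RefSeq (symbol, or reciprocal overlap of at least 50%) with a mean of at least 0.1 FPKM were tested with limma 3.58.1 in R 4.3.3 on log2(FPKM + 0.1) with a variance trend, all 6 pigs in 1 fit. The thresholds are those of the study, which set them for a test on counts. Folds on this scale understate the change of weak genes. Adjusted p values are Benjamini-Hochberg over all tested genes. On simulated data of the S-H against S-L comparison with 12245 genes, 79 of 100 genes changed by 1.5 and 89 of 100 changed by 2 on the log2 scale passed.

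The members and lists were chosen with earlier results of these data known. Named with values in every pig were the catalytic, immunoproteasome and PA28 subunits, the genes of largest and smallest log2 fold change per class, those with an unadjusted p below 0.05, and those of highest and lowest mean. Of the related genes, those with an unadjusted p below 0.05 and up to 4 more per list were named, apart from results not reported here. Other pseudocounts, filters, scalings, variance settings and transcript choices, and each pig left out, were tried. Python 3.11.15 with pandas 2.3.3 and scipy 1.17.1 was used.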

Additional observations from a re-analysis of the deposited data

How the results depend on the processing

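Of all tested genes 163 passed the thresholds, 143 higher and 20 lower in S-H. With a pseudocount of 1 the number was 70, with a mean of at least 1 FPKM it was 99, and with 1 pig left out it was 90 to 222. The split was 80 higher and 37 lower with size factors, 69 and 46 with quantile normalization, and 228 and 12 in TPM. No proteasome gene passed with all 6 pigs on FPKM, 2 did in TPM, and 0 to 2 with 1 pig left out. Among the 41 genes, 27 had higher means in S-H, but 11 with size factors, 12 with quantile normalization, and 13 (without LW90) to 34 (without LW88) with 1 pig left out. Groups without overlap were found for 4 genes, all higher in S-H (13% of all tested genes were so). With size factors they were found for 9, with 3 higher (5.94% of all) and 6 lower (6.48% of all). The transcript of highest mean gave 7, all higher (12.3% of all). With 1 pig left out the number was 5 (without LW70 or LW82) to 15 (without LW88). In these 3 cases all were higher, as were 26.5%, 25.2% and 23.4% of all tested genes. The median log2 fold change of 0.08 was -0.15 with size factors and -0.14 (without LW90) to 0.33 (without LW88) with 1 pig left out. PSMB8, PSMB9, PSMB10, PSME1 and PSME2 kept their direction in all 18 alternatives, which reuse the same pigs. The value with the C14orf93 transcript added to PSMB5 was chosen after seeing the data. No paired analysis was possible because no label links a pig of S-H to a pig of S-L. FPKM without counts limits the precision of the weakest genes, PSMC3IP and PSMB9 above all.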
